A study of Mus musculus with 5 samples.

Results

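The genes described here encode 9 enzymes that begin or carry out the breakdown of amino acids in the liver, namely Tat, Hpd, Hgd, Fah, Hal, Uroc1, Sds, Tdo2 and Gls2. They were chosen by symbol and make up 9 of the 31053 genes listed. Their levels were read in hepatocytes, the main metabolic cells of the liver, in 5 droplet libraries of liver cells from C57BL/6J mice. The libraries came from postnatal day 14 (P14), from adult control mice, and from adult mice taken 24 h, 48 h or 96 h after PHx. In PHx (partial hepatectomy) a surgeon takes out most of the liver, and the tissue left behind grows back. The adults, control included, were 8 weeks old per the protocol. Each group is 1 library. The labels give neither the number nor the sex of the animals, so no spread between animals could be measured. The protocol counts the adult control among the operated mice, whereas its title, source and age field call it a control, and it was treated as one. A code in the descriptions sets the adult control apart from the other 4 libraries, so any difference in handling marked by it and the control condition cannot be told apart. All cells had been released by perfusion and passed through a dead-cell removal kit, which sets the cells that could be recovered.

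Hepatocytes were barcodes with at least 5000 unique molecular identifiers (UMIs, the counted RNA molecules), 10% to 30% mitochondrial UMIs and at least 1% of UMIs from Alb, Apoa1 and Ttr. Of 5691 such cells, 2106 came from P14, 925 from the adult control, 1170 from 24 h, 719 from 48 h and 771 from 96 h after PHx. Median depth was lowest in the adult control, with 18527 UMIs per cell, and highest in P14, with 38922.5. Of 10 hepatocyte markers 9 were found, and the 6 of them that the rule did not use held 1.58% to 2.90% of hepatocyte UMIs in the 5 libraries, against 0.111% to 0.658% in leukocyte barcodes. Marker lists of other cells held 0.00262% to 0.0122% for 10 leukocyte genes, 0.0140% to 0.0161% for 12 endothelial genes and 6.70e-05% to 0.000773% for 8 Kupffer cell genes. Red cell genes, 5 in number, held 0.0123% in P14 and 0.0325% to 0.0761% in the adults, and all 5 were below the adult control in P14 and after 96 h. Of 6 bile duct genes, which held 0.00356% to 0.0188%, Spp1 and Sox9 were high enough to compare. On the log2 scale over the adult control, Spp1 stood at 1.89 after 24 h, -0.30 after 48 h, 3.08 after 96 h and 1.15 in P14. Sox9 stood at 0.87, 0.74, 0.81 and -1.47 in the same order. Stellate cell genes, 7 in number, held 0.00466% in P14 and 0.000442% to 0.00118% in the adults, and Reln, the one of them high enough to compare, stood at 3.68 in P14, 1.37 after 24 h and 1.64 after 96 h. The 13 genes that respond to cell handling held 0.0516% to 0.0943%. Over those high enough to compare, their median log2 difference was -0.08 after 24 h, 0.31 after 48 h, 0.79 after 96 h and -0.70 in P14. Hspa1b was the lowest of them each time, at -2.22 after 24 h, -3.08 after 48 h, -1.38 after 96 h and -4.29 in P14. The highest were Fos at 0.68 after 24 h, Fosb at 1.22 after 48 h and 1.42 after 96 h, and Btg2 at 1.08 in P14. The part of these cells' RNA and of handling in the results was not tested. RNA free in the droplets was expected to supply 1.48% of hepatocyte UMIs in P14, 9.19% in the adult control, 3.98% after 24 h, 0.980% after 48 h and 4.44% after 96 h. From 0 to 3 hepatocyte barcodes of a library occurred in another one. A list of 20 acute phase genes, which the liver switches on after injury, took 2.51% of UMIs in the adult control but 10.9% after 24 h and 14.5% after 48 h.

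Tyrosine is broken down in a chain. Tat removes the amino group, Hpd converts the product to homogentisate, Hgd opens its ring, and Fah makes the final cut into fumarate and acetoacetate. Histidine is first deaminated by Hal, and Uroc1 acts on the product. Sds turns serine into pyruvate, Tdo2 opens the ring of tryptophan, and Gls2 releases ammonia from glutamine in periportal hepatocytes. Tat and Tdo2 are textbook glucocorticoid-induced liver genes. Periportal hepatocytes, where blood enters the lobule, are known for urea and glucose synthesis, and pericentral ones for glutamine synthesis and drug metabolism.

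Levels are given as CPM, the UMIs of a gene scaled by the summed non-mitochondrial UMIs of the hepatocytes. Differences are log2 ratios of CPM + 1 over the adult control, with exact 95% intervals in parentheses that cover counting error alone. With 1 library per group there is no replicate check and no test, and a gene is said to have risen or fallen when it differed at least 2-fold. After 24 h, 1 of the 9 enzymes rose and 2 fell, against 8.51% and 7.13% of all 9028 genes tested. After 48 h none rose and 4 fell, against 8.30% and 7.63% of all genes. After 96 h Sds rose and none fell, against 4.07% and 1.88%. In P14, Fah was higher and 3 enzymes were lower than in the adult control, against 7.89% and 13.8%. The median difference of the 9 enzymes was -0.66 after 24 h, -0.84 after 48 h, -0.05 after 96 h and -0.47 in P14, beside 0.00, -0.08, 0.04 and -0.26 for all genes. With the acute phase genes also left out of the total, the shares of all genes that rose and fell became 11.1% and 5.76% after 24 h and 11.5% and 5.24% after 48 h. Of the enzymes that fell, Gls2 after 24 h and Hpd after 48 h then missed the 2-fold line. With TMM scaling those of P14 became 12.8% and 7.64%, and the median of all genes there went from -0.26 to 0.08.

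**Figure D1:**
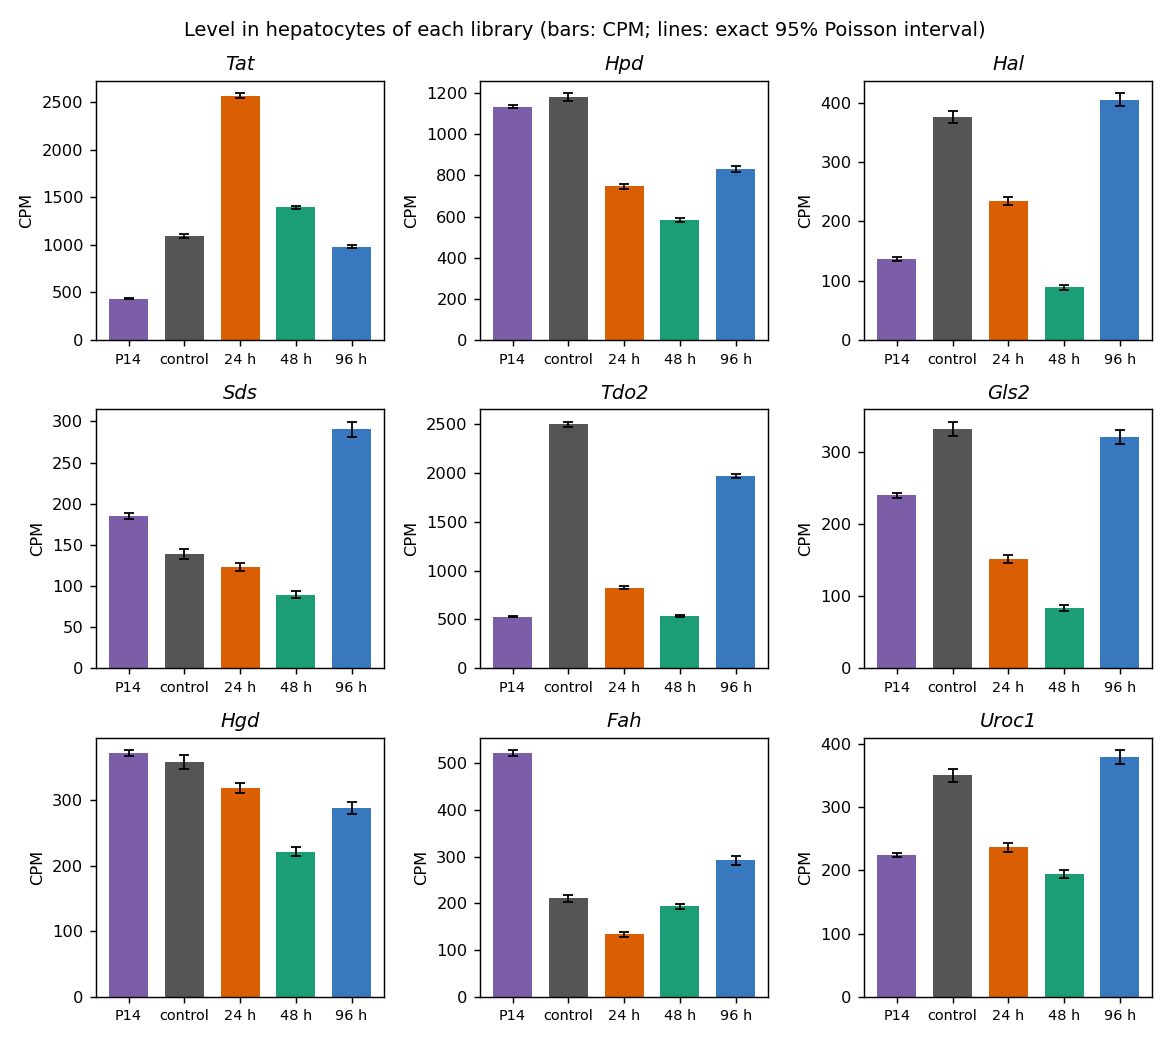
Level of each enzyme gene in hepatocytes of the 5 libraries, as bars of CPM from 0 with exact 95% Poisson intervals as lines, on a separate axis for each gene. Tat peaks after 24 h, Tdo2, Hal and Gls2 are low after 48 h and back near the control after 96 h, and Fah is highest in P14.

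**Figure D2:**
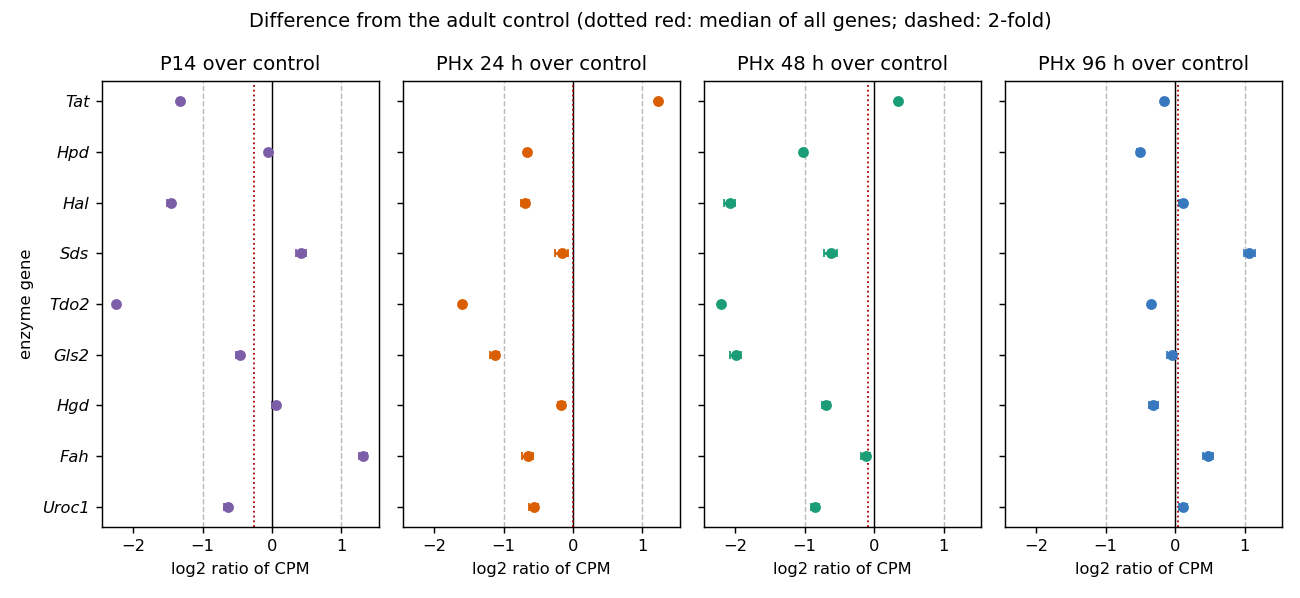
Log2 ratio of CPM over the adult control for each enzyme (points, with exact 95% intervals), in P14 and at the 3 times after PHx. Tat stands alone to the right after 24 h, and after 48 h 8 of 9 points lie left of 0.

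Tat, the first enzyme of tyrosine breakdown (chromosome 8, 109990437 to 109999803, GRCm38, plus strand), went its own way after surgery. It stood at 1095 CPM in the adult control, 2573 after 24 h, 1396 after 48 h, 982 after 96 h and 436 in P14, and no neighbours in this order had overlapping intervals. It rose 2.35-fold after 24 h, a log2 difference of 1.23 (1.21 to 1.26), and was 2.51-fold lower in P14, at -1.33 (-1.36 to -1.30). With TMM scaling the P14 difference was -0.986 and missed the 2-fold line. Among the hepatocytes the higher level was general cell by cell. Barcodes under 10% mitochondrial UMIs, described at the end, did not show it. They had 691 CPM after 24 h and 718 in the adult control. After each cell was thinned to 5000 UMIs, 100% of the 1170 hepatocytes after 24 h had a Tat UMI (exact interval 99.7% to 100%), against 96.9% in the adult control and 76.5% in P14, and without thinning 99.5% to 100% did in all libraries. The median cell held 10 Tat UMIs after 24 h and 4 in the adult control. Leukocyte barcodes, which should lack Tat, had a UMI in 22.6% after 24 h when both were thinned to 1000 UMIs, against 84.4% of hepatocytes. Their median depths before thinning were 5162 and 19562 UMIs.

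The later enzymes of the tyrosine chain did not follow Tat. Hpd, the next step (chromosome 5, 123171807 to 123182727, minus strand), had 1181 CPM in the adult control, 748 after 24 h, 582 after 48 h, 830.1 after 96 h and 1134 in P14. It fell after 48 h, by 1.02 on the log2 scale (-1.05 to -0.99), and this was the call nearest the threshold. It was lost with acute phase genes out of the total (-0.83), free RNA subtracted (-0.91), TMM scaling (-0.93), 10% to 20% mitochondrial UMIs (-0.96) or cells of at least 10000 UMIs (-0.9995). With 10% to 20% mitochondrial UMIs 5 of the 9 enzymes fell, against 10.7% of all genes, as Sds (-1.01) and Uroc1 (-1.19) passed the line. Barcodes under 10%, described at the end, had 2898 CPM of Hpd in the adult control. They had 1111 after 24 h, 820 after 48 h, 1550 after 96 h and 1539 in P14. Among hepatocytes by the rule, Hpd in P14 differed little from the adult control, at -0.06 (-0.08 to -0.03), and with TMM scaling the sign turned, to 0.29. Another gene model on the same strand, Gm26745, overlaps Hpd, so shared reads may have been left uncounted. Hgd (chromosome 16, 37580153 to 37632020, plus strand) was the steadiest, with 358 CPM in the adult control, 319 after 24 h, 221 after 48 h, 288 after 96 h and 371 in P14. In hepatocytes by the rule its highest level was 1.68 times its lowest, the intervals of P14 and the adult control overlapped, and it passed no 2-fold line. Barcodes under 10% mitochondrial UMIs were less even for Hgd. They had 907 CPM in the adult control, 372 after 24 h, 249 after 48 h, 472 after 96 h and 474 in P14.

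Fah, the last enzyme of the chain (chromosome 7, 84585159 to 84606722, minus strand), was the one enzyme at least 2-fold higher in P14 hepatocytes than in the adult control. It had 522 CPM in P14, 211 in the adult control, 133 after 24 h, 194 after 48 h and 292 after 96 h. P14 exceeded the adult control by 1.30 (1.25 to 1.36) in hepatocytes by the rule. This excess was not seen in barcodes under 10% mitochondrial UMIs, described at the end. They had 601 CPM of Fah in P14 and 733 in the adult control. In barcodes above 30% mitochondrial UMIs Fah had 366 CPM in P14 and 279 in the adult control, which is under 2-fold. A Fah UMI was seen in 85.1% of P14 hepatocytes and 55.7% of adult control hepatocytes at 5000 UMIs. Free RNA bore on this gene most, since 27.0% of its UMIs in the adult control were expected from it. At 1000 UMIs the share of adult control hepatocytes with a Fah UMI was 15.9% (13.6% to 18.4%), and the 14.6% of leukocyte barcodes lay within that interval. Their median depths before thinning were 18527 and 5888.5 UMIs. Free RNA can weigh more in shallower barcodes, so this comparison cannot place the share above or at background. With the expected free RNA subtracted the P14 difference was 1.62, and the difference after 48 h turned from -0.12 to 0.19. Of the 8 enzymes listed for phenylalanine and tyrosine, Tat alone rose after 24 h and none fell, against 8.51% and 7.13% of all genes. After 48 h Qdpr, which renews the cofactor tetrahydrobiopterin, fell as Hpd did, and stood at -1.20.

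Tdo2, the first step of tryptophan breakdown (chromosome 3, 81957090 to 81976202, minus strand), was lower than in the adult control in all 4 other libraries. Its level was 2496 CPM in the adult control, 827 after 24 h, 540.3 after 48 h, 1969 after 96 h and 527 in P14. The intervals of 48 h and P14 overlapped. The differences were -1.59 (-1.62 to -1.57) after 24 h, -2.21 (-2.24 to -2.18) after 48 h, -0.34 (-0.37 to -0.32) after 96 h and -2.24 (-2.26 to -2.22) in P14. The median cell went from 9 UMIs in the adult control to 3 after 24 h and 2 after 48 h, and 86.8% of cells after 48 h had a Tdo2 UMI at 5000 UMIs. At 1000 UMIs the share after 48 h was 33.7% of hepatocytes against 2.172% of leukocyte barcodes, whose median depths before thinning were 35432 and 6182 UMIs. In the adult control it was 85.2% against 52.6%, at median depths of 18527 and 5888.5 UMIs. With a pseudocount of 10 CPM 3 of 8 tryptophan enzymes fell after 24 h, against 3.26% of all genes. With the usual pseudocount 5 fell, against 7.13% of all genes. They were Tdo2, Ido2 at -1.48, Aadat at -1.46, Afmid at -1.37 and Haao at -1.001, which lay at the line and was -0.943 with TMM scaling, while Acmsd, which diverts an intermediate away from NAD synthesis, rose by 1.42. After 48 h 5 fell, against 7.63% of all genes, among them Kynu at -1.43. The count was 4 with 10% to 20% or 0% to 30% mitochondrial UMIs, doublets removed or free RNA subtracted. It was also 4 with TMM scaling, acute phase genes out of the total or a pseudocount of 10 CPM. Under these settings 3.66% to 10.7% of all genes fell. In P14 5 were lower, against 13.8%, with Acmsd at -2.82.

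The 250 bases before the start of Tat, Tdo2 and Hal are shown because the first rose and the others fell or stood lower after surgery. They are from the RefSeq promoter table (GRCm38.p6), 5′ to 3′ on the gene's strand, with matches to CCAAT and TATAAA on either strand in capitals. The window of Tat lies at chr8:109990186-109990435 on the plus strand, Tdo2 at chr3:81975729-81975978 on the minus strand and Hal at chr10:93488518-93488767 on the plus strand.
Tat: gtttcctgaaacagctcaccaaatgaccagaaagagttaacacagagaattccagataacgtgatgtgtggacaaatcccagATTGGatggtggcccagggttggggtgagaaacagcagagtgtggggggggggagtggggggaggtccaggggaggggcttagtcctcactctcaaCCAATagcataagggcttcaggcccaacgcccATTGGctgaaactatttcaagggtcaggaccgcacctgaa
Tdo2: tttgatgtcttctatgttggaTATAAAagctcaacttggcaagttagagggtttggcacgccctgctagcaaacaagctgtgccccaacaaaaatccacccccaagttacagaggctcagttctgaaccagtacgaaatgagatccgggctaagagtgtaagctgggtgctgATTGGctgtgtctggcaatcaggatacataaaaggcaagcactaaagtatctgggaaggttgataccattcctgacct
Hal: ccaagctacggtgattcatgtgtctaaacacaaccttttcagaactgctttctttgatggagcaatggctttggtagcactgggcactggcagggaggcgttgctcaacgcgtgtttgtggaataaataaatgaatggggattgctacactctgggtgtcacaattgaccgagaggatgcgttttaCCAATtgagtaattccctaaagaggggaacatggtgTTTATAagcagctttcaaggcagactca
The CCAAT box is a common promoter element bound by NF-Y, and TATAAA is the core of the TATA box, which acts close to the start. Positions count backwards from the RefSeq start. It lies 474 bases inside the GENCODE gene model given above for Tdo2, and 780 bases inside it for Fah, which is counted below. Tat had 3 CCAAT matches, which began 168, 72 and 40 bases before the start. Tdo2 had 1, at 78 bases, and Hal 1, at 64 bases. TATAAA matches lay at -28 in Hal, -229 in Tdo2 and -139 in Hgd. Of the 7 enzymes with a RefSeq promoter, 5 held CCAAT, against 33.8% of all 32851 promoters, and 3 held TATAAA, against 12.4%. None of the 7 held AGAACA, a core motif of the glucocorticoid receptor, found in 16.1% of promoters, or TGTTTAC, the core bound by FOXA factors, found in 3.17%. No matches overlapped. These letters in this short window are a description and say nothing of binding.

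Hal and Uroc1, the first enzymes of histidine breakdown, were lowest after 48 h. Hal (chromosome 10, 93488768 to 93519304, plus strand) had 376 CPM in the adult control, 233 after 24 h, 88.5 after 48 h, 405 after 96 h and 136 in P14. It fell 4.24-fold after 48 h, at -2.07 (-2.16 to -2.01). With 10% to 20% mitochondrial UMIs the difference was -2.87, beyond that of Tdo2 at -2.39. Hal was back within 0.11 of the control after 96 h. In P14 it was lower by a log2 difference of -1.46 (-1.51 to -1.41). Uroc1 (chromosome 6, 90333284 to 90364551, plus strand) had 350.4 CPM in the adult control, 236 after 24 h, 195 after 48 h, 379 after 96 h and 225 in P14. It passed no 2-fold line in hepatocytes by the rule, but did after 48 h with 10% to 20% mitochondrial UMIs. The next enzymes of the chain, Amdhd1 and Ftcd, fell after 48 h too, at -1.18 and -1.50. So 3 of the 4 histidine enzymes fell, against 7.63% of all genes. With acute phase genes out of the total 2 did, against 5.24%, and Amdhd1 missed the line. All 4 histidine enzymes were below the control after 24 h without passing 2-fold, between -0.80 and -0.57.

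Gls2, the liver glutaminase (chromosome 10, 128194457 to 128210004, plus strand), had 331 CPM in the adult control, 151 after 24 h, 83.0 after 48 h, 319.8 after 96 h and 239 in P14. The intervals of the adult control and 96 h overlapped. Gls2 fell after 24 h, at -1.13 (-1.20 to -1.06), and further after 48 h, at -1.98 (-2.08 to -1.92). With cells of 10% to 20% mitochondrial UMIs, of which the adult control held 87, the 24 h difference was -0.997, and with acute phase genes out of the total, over all cells, it was -0.998. Both missed the 2-fold line. Glul, the pericentral enzyme that runs the opposite reaction, fell after 24 h by 1.15 and stood at -0.52 after 48 h.

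Sds, serine dehydratase (chromosome 5, 120476526 to 120483932, plus strand), had its highest level after 96 h. It stood at 139 CPM in the adult control, 124 after 24 h, 89.7 after 48 h, 290.3 after 96 h and 185 in P14. It rose 2.10-fold after 96 h, at 1.06 (0.99 to 1.15), and was the only one of the 9 to pass the 2-fold line there. In the adult control the share of hepatocytes with a Sds UMI at 1000 UMIs, 9.41% (7.60% to 11.5%), was as low as the 8.99% of leukocyte barcodes, and after 96 h it was 15.8% against 13.1%. Median depths before thinning were 18527 and 5888.5 UMIs in the adult control, and 22075 and 4479 after 96 h. With the expected free RNA subtracted the 96 h difference was 1.10. Barcodes under 10% mitochondrial UMIs, described at the end, had 797 CPM of Sds after 96 h and 653 in the adult control, which is under 2-fold. At 5000 UMIs, 25.0% of P14 hepatocytes had a Sds UMI, and the 10% of cells with the most held 70.1% of all Sds UMIs. These shares were close to that after 48 h, at 21.7% and 67.2%. They were 29.2% and 57.4% after 24 h, 37.5% and 48.4% in the adult control, and 50.7% and 41.5% after 96 h. The Fano factor, the variance of the UMIs per cell over their mean, was 3.90 for Sds in P14, above 99.6% of genes, where the median gene had 1.02. It lay between 1.66 and 2.22 for Sds in the other libraries. The Fano factor of Hgd was 0.998 to 1.25, that of Fah 1.08 to 1.16 and that of Uroc1 1.09 to 1.29.

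**Figure D3:**
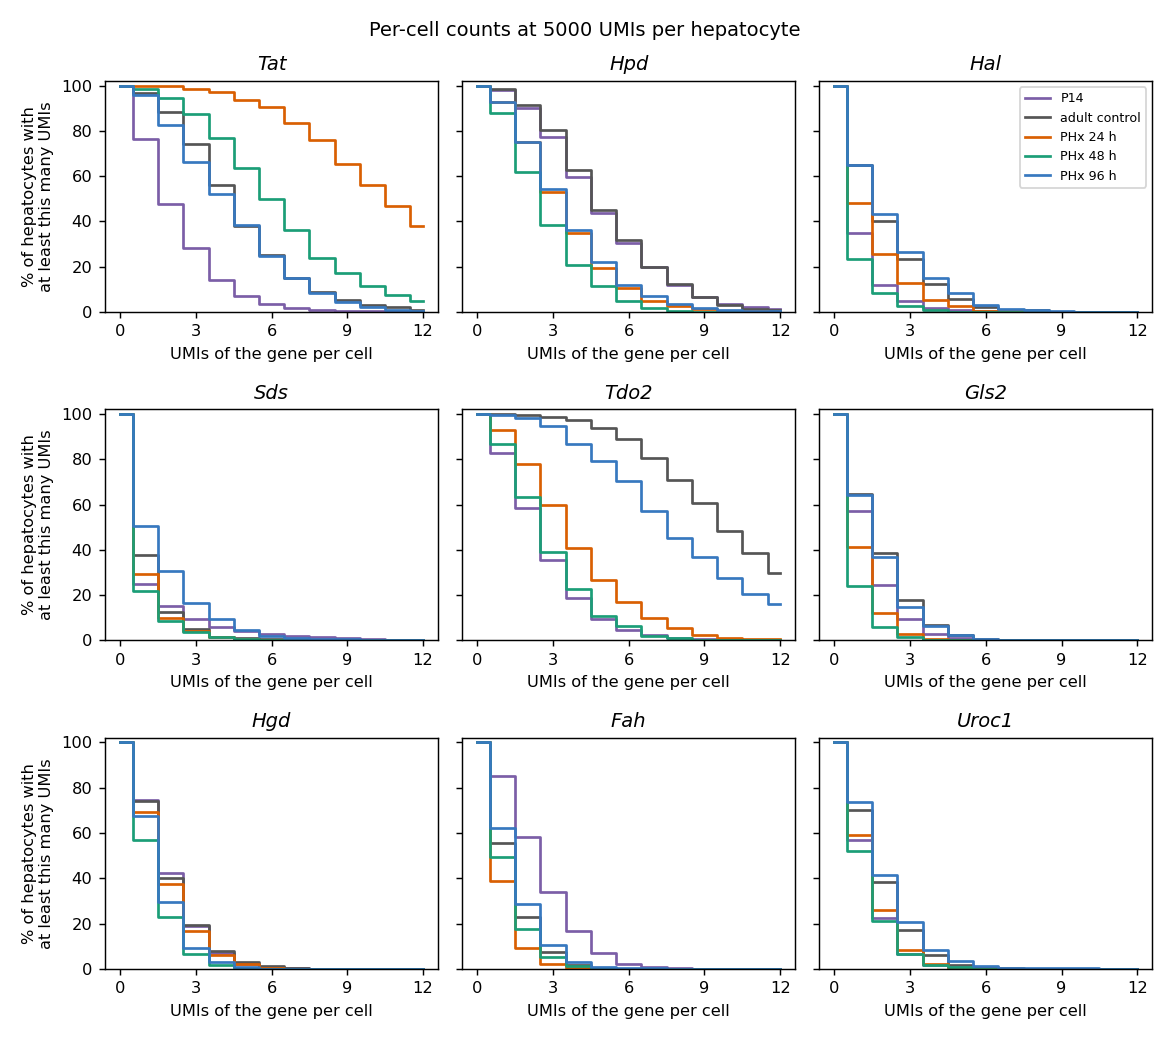
Percent of hepatocytes (vertical axis) with at least a given number of UMIs of each gene (horizontal axis, 0 to 12), each cell thinned to 5000 UMIs, 1 line per library. All lines start at 100% at 0 UMIs. The Sds line drops to 25.0% at 1 UMI in P14 and to 21.7% after 48 h, and that of P14 has a long tail. The Tat line of 24 h stays near 100% over the first counts.

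The position of hepatocytes along the lobule was read within each library from 7 portal genes (Hsd17b13, Pck1, Ass1, Asl, Arg1, Cps1 and Gldc) and 8 central genes (among them Cyp2e1, Glul and Oat), none of them among the 9 enzymes. Cells were ordered by this index and split into 3 zones of equal cell number, portal, middle and central, and the outer zones were compared at 5000 UMIs per cell. Cyp2f2, a portal gene left out of the index, was 4.61-fold to 41.1-fold higher in the portal zone in the 5 libraries. Hal, Sds and Gls2 were at least 2-fold higher in the portal zone in every library, and Uroc1 in the adult control, after 24 h and after 48 h. This made 3 of 9 enzymes in P14, 4 in the adult control, 4 after 24 h, 4 after 48 h and 3 after 96 h. In the same order the shares of all genes were 1.02%, 1.45%, 1.34%, 2.85% and 1.96%. With an index from Cyp2f2 and Cyp2e1 alone the count in P14 was 0, where Cyp2f2 had 31.3 CPM against 1882 in the adult control.

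In the adult control Hal had 634 CPM in the portal zone and 101 in the central zone, a log2 ratio of 2.64 (2.37 to 2.94). The ratio was 2.48 in P14, 2.99 after 24 h, 4.38 after 48 h and 2.74 after 96 h. Sds had 283 and 40.2 CPM in the adult control, at 2.79 (2.37 to 3.29), with 4.56 in P14, 3.58 after 24 h, 5.48 (4.40 to 7.66) after 48 h and 2.96 after 96 h. Gls2 had 488 and 141 CPM there, at 1.78 (1.54 to 2.05), with 1.51 in P14, 1.95 after 24 h, 3.92 (3.09 to 5.21) after 48 h and 1.84 after 96 h. For Hal and Gls2 the interval after 48 h lay above those of the other 4 libraries. Uroc1 ran from 0.50 in P14 to 1.32 after 48 h. Tat, Hpd, Tdo2, Hgd and Fah stayed between -0.30 and 0.61 in all libraries, inside the 2-fold lines. Of these, Tat in P14, at 0.61 (0.50 to 0.73), and Tdo2 after 96 h, at 0.60 (0.51 to 0.70), lay furthest to the portal side. Kynu, a later tryptophan enzyme, stood at 0.94 (0.67 to 1.23) in P14. Amdhd1 and Ftcd, the later histidine enzymes, leaned portal less than Hal, at 0.81 and 0.44 in the adult control. Sdsl, a paralogue of Sds, leaned portal at 2.08 with 18.7 CPM.

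**Figure D4:**
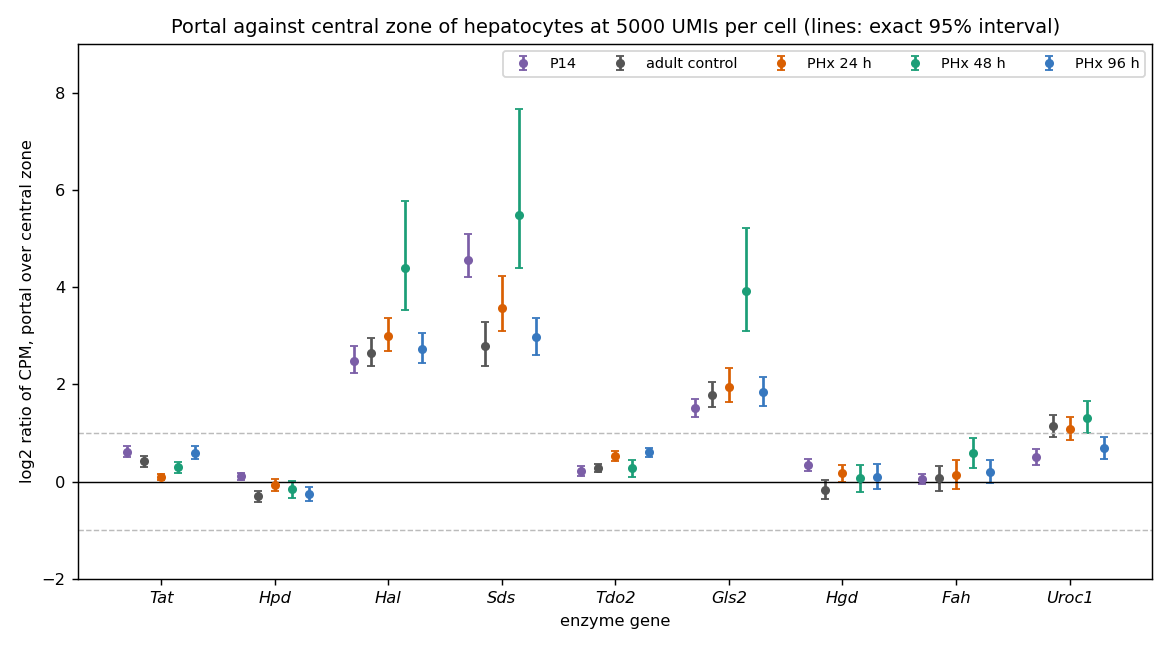
Log2 ratio of CPM in the portal over the central zone of hepatocytes for each enzyme (points, 1 colour per library, with exact 95% intervals). Hal, Sds and Gls2 lie above the dashed 2-fold line in all 5 libraries and highest after 48 h, while Tat, Hpd, Tdo2, Hgd and Fah lie between -0.30 and 0.61.

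After 48 h Hal, Gls2 and Sds differed more from the adult control in the central zone than in the portal zone. Zones were set within each library, and the 12 portal genes listed had a median difference of -0.90 themselves. Hal differed from the same zone of the adult control by -3.39 (-4.77 to -2.50) in the central zone and by -1.64 (-1.89 to -1.41) in the portal zone. Gls2 stood at -3.71 (-5.00 to -2.88) and -1.57 (-1.85 to -1.31), and Sds at -2.94 (-5.14 to -1.75) and -0.24 (-0.50 to 0.01). The central and portal intervals did not overlap for these 3 genes. They did for Uroc1, at -0.88 (-1.23 to -0.55) and -0.69 (-0.92 to -0.48). The middle zone lay between them, at -2.77 (-3.18 to -2.41) for Hal, -2.47 (-2.87 to -2.12) for Gls2 and -1.71 (-2.26 to -1.22) for Sds, and for Hal and Sds its interval overlapped the central one. Over all hepatocytes, free RNA was expected to supply 11.1% of Hal, 17.7% of Sds and 9.71% of Gls2 UMIs in the adult control but 1.16% to 2.12% after 48 h. The same free RNA makes up a larger share where a gene is lower, as these 3 were in the central zone. Its part in the central values and in the portal over central ratios was not tested. Tdo2 fell by 2.03 in the central and 2.04 in the portal zone, and Tat after 24 h rose by 1.52 and 1.20. After 96 h Sds differed by 0.78 (0.23 to 1.36), 1.13 (0.86 to 1.42) and 0.96 (0.76 to 1.16) in the central, middle and portal zones.

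Cells with at least 3 mitosis genes were set against cells of the same library with no mitosis gene and at most 1 replication gene. There were 255 and 1230 such cells in P14, 172 and 362 after 24 h, 297 and 179 after 48 h, and 75 and 439 after 96 h. The median difference of the 9 enzymes was -0.02 in P14, -0.60 after 24 h, -0.30 after 48 h and -0.68 after 96 h, beside 0.25, 0.12, 0.18 and 0.25 for all genes. After 24 h Hal and Sds were at least 2-fold lower in mitotic cells, at -1.10 (-1.45 to -0.78) and -1.38, against 1.32% of all genes. After 96 h Hal, Gls2 and Sds were, at -1.89, -1.57 and -1.33, against 3.28%. After 48 h and in P14 none passed 2-fold lower, against 1.58% and 0.223% of all genes. The enzymes ran from -0.98 for Hal to 0.38 (-0.10 to 0.89) for Sds after 48 h. Of the mitotic cells 48.3% were in the central zone after 24 h and 70.7% after 96 h, so position moved with this comparison. The portal zone held 20.9% of mitotic and 48.3% of non-mitotic cells after 24 h, and 10.7% and 41.0% after 96 h. After 48 h it held 36.4% and 25.7%, a shift the other way. Within the middle zone after 24 h the median was -0.57. Cells outside mitosis differed from those of the adult control by a median of -0.48 after 24 h, -0.75 after 48 h and 0.16 after 96 h. Among them Tat still rose by 1.49 after 24 h, and Tdo2 stood at -1.39 after 24 h and -1.86 after 48 h.

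**Figure D5:**
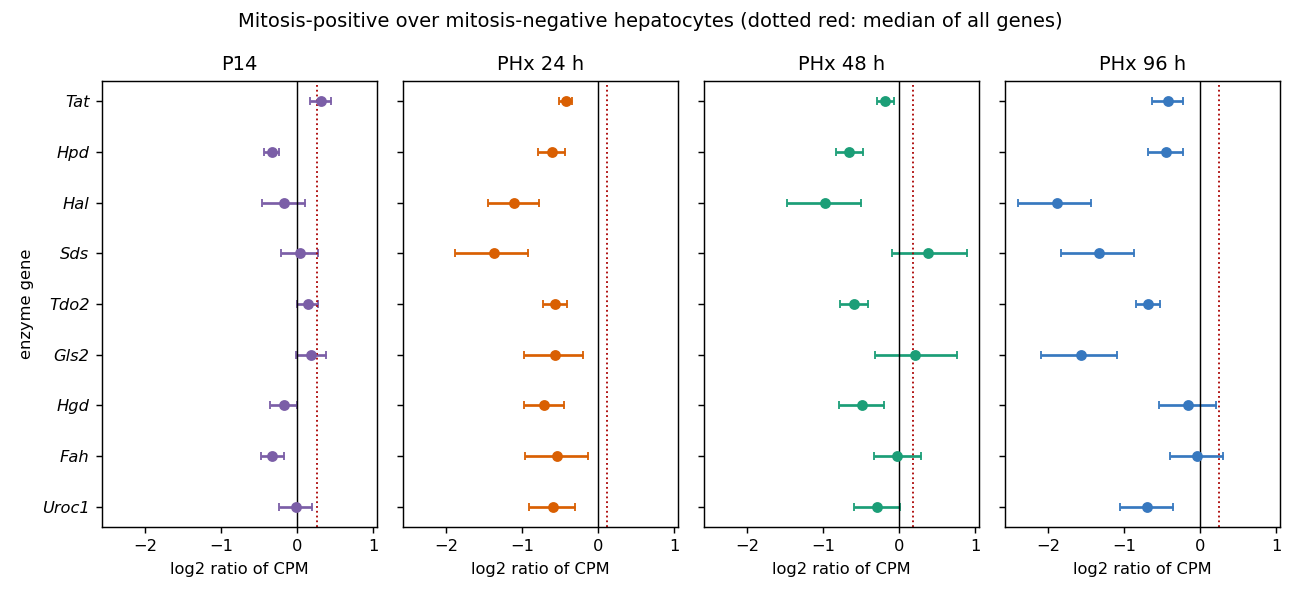
Log2 ratio of CPM in mitosis-positive over mitosis-negative hepatocytes of the same library for each enzyme (points, with exact 95% intervals). All 9 points lie below 0 after 24 h, and Hal, Sds and Gls2 lie furthest left after 96 h.

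Over the 36 pairs of the 9 enzymes, Pearson's r across cells at 5000 UMIs had a median between 0.05 and 0.09 in the 5 libraries, each with 719 to 2106 cells that share a library and a depth. Hal with Sds ran from 0.28 to 0.44, Hal with Gls2 from 0.21 to 0.36, Sds with Gls2 from 0.21 to 0.28 and Hal with Uroc1 from 0.12 to 0.24. Hpd with Hal was at -0.10 in the adult control. These are descriptions of sparse counts.

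Of 51 other enzymes of amino acid metabolism, 49 reached the 5 CPM needed. After 24 h 2 rose and 10 fell, against 8.51% and 7.13% of all genes, after 48 h none rose and 14 fell, against 8.30% and 7.63%, and after 96 h none rose and 1 fell, against 4.07% and 1.88%. Their medians were -0.49, -0.68 and 0.00. With 10% to 20% mitochondrial UMIs 5 fell after 96 h, against 7.75% of all genes, and with acute phase genes out of the total 4 rose and 8 fell after 24 h, against 11.1% and 5.76%. Oat, which acts on ornithine and is pericentral, rose by 1.90 after 24 h, from 493 to 1840 CPM, the highest value of those lists. Csad, which makes the precursor of taurine, fell by 1.96 and Bckdha, a subunit of the branched-chain keto acid dehydrogenase, by 1.66. After 48 h Prodh, the first enzyme of proline breakdown, had the largest fall, at -1.97. In P14 10 of 50 were lower and 2 higher, against 13.8% and 7.89% of all genes, with Prodh at -3.57, Gpt2 at -3.19 and Oat at -3.06 against Prodh2 at 2.13. With TMM scaling 7 were lower and 3 higher there, against 7.64% and 12.8%, and with a pseudocount of 10 CPM 1 was higher, against 3.93%. Of 13 amino acid transporters 11 were high enough, and 1 fell after 24 h (Slc38a4, -1.59) and 3 after 48 h (Slc7a2, -1.57, Slc38a4, -1.27, and Slc38a3, -1.05), beside the same 7.13% and 7.63% of all genes. In P14 5 of the 11 were lower, against 13.8%, with Slc3a1 lowest at -2.11, and 3 were with TMM scaling, against 7.64%. With 0% to 30% mitochondrial UMIs 2 fell after 24 h and 1 after 96 h, against 8.79% and 3.73% of all genes, and with 10% to 20% 2 fell after 96 h, against 7.75%. None rose in any comparison.

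Of 16 regulators named for these enzymes, 4 fell and 2 rose after 24 h, against 7.13% and 8.51% of all genes, 4 fell after 48 h, against 7.63%, and 4 were lower and 3 higher in P14, against 13.8% and 7.89%. The count that fell after 24 h was 2 with a pseudocount of 10 CPM, against 3.26% of all genes. The count lower in P14 was 2 with TMM scaling, against 7.64%, and the count higher in P14 was 1 with that pseudocount, against 3.93%. Cebpa, a factor of the mature liver, had 352 CPM in the adult control, 72.5 after 24 h, 81.2 after 48 h and 263 after 96 h, and fell by 2.26 and 2.10. Cebpb, its relative of the acute response, rose by 1.07 after 24 h. Fkbp5, a gene known to be induced by glucocorticoids, had 18.2 CPM in the adult control, 74.3 after 24 h, 30.5 after 48 h and 75.3 in P14, and rose by 1.97 after 24 h. Tsc22d3, another such gene, stood at 0.02 after 24 h, and Nr3c1, the receptor itself, at -0.56. Foxa1 fell by 1.20 after 24 h and 1.76 after 48 h.

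The genes whose pattern over the 5 libraries came closest to each enzyme were sought among 3379 genes of at least 50 CPM in some library, by the root mean square difference of centred log2 levels. For Tat these were Smad1 (0.08), Snx10 and Yod1. They were Mid1ip1 (0.13), Cyp4v3 and Cat for Tdo2, Etnppl (0.22), Slc7a2 and Nr1d2 for Hal, and Hsd17b13 (0.15), Bche and Iyd for Sds. For Gls2 they were Pklr (0.15), Uox and Ftcd, and for Fah Hadh (0.03) and Eci1. For Hpd they were Gpi1 (0.10), Dmgdh and Gtf2i, for Hgd Ttc38 (0.08), Arhgap5 and Rhobtb1, and for Uroc1 Kat2b (0.05), Iigp1 and Ppp2r5e. Among the 9 themselves the closest pair was Hpd and Hgd, at 0.17, and Tat was far from all, with Uroc1 nearest at 0.94.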

How the data were processed

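Liver cells were profiled with a 10x v3 kit in 5 libraries, 1 per group. The values the authors deposited are whole, unnormalized UMI counts in 1 sparse matrix per library, over 31053 genes and 6794880 barcodes, so empty droplets are included. Software version 3.0.2 is named per the file headers, and per the submitters' processing notes Cell Ranger, bcl2fastq 2.17.1.14, Seurat 3.1 and the build mm10 were used, with no roles given. Libraries held 80927744 to 136110607 UMIs. The spread between animals is unknown.

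The counts of all hepatocytes of a library were summed and divided by the total without the 13 mitochondrial genes. Log2 ratios used a pseudocount of 1 CPM, and the background share covers genes that reached 5 CPM in 1 or both libraries compared (20 CPM between zones or mitotic states). Levels have exact Poisson intervals, shares exact binomial (Clopper-Pearson) intervals, and ratios exact conditional intervals. All of them cover counting error only. Per-cell values, positions and mitosis comparisons used cells thinned to 5000 UMIs, which every hepatocyte reached, and comparisons with leukocyte barcodes used 1000. Leukocyte barcodes had at least 1000 UMIs, under 10% mitochondrial UMIs and at least 4 leukocyte marker genes. The free-RNA profile was the mean of barcode ranks 20001 to 60000. Index genes needed 50 CPM in every library. Doublets were left in, and an alternative removed barcodes with 3 marker genes of other cells and the highest Scrublet scores (scanpy 1.11.5). Other alternatives changed the mitochondrial and UMI limits, the scaling (TMM, edgeR 4.0.16), the total, the pseudocount, the free RNA, the position index and the mitosis rule. Sums and intervals were computed in Python 3.11.15 with scipy 1.17.1 and tested on simulated data. Positions are from GENCODE M21 (GRCm38, the same assembly as mm10), and promoters from RefSeq.

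All 9 enzymes are named. Further named genes were the up to 3 largest ratios per direction, list and comparison, the genes of the same chains, and the 3 genes most alike in pattern, apart from a few results that are not reported here. The enzymes and gene lists were chosen with earlier results of these data known.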

Additional observations from a re-analysis of the deposited data

How the results depend on the processing

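Of 77 recomputed medians and counts, 64 stayed within the counting interval of the reported value (medians) or within 1.5 times of it (counts). The exceptions all kept their direction. With 10% to 20% mitochondrial UMIs, which left 87 adult control hepatocytes, the median of the 9 enzymes was -0.57 at 24 h, -1.01 at 48 h and -0.38 in P14, and 1 enzyme fell at 24 h instead of 2, against 9.95% of all genes. With 0% to 30% it was -0.91 at 48 h and -0.18 at 96 h. With acute phase genes out of the total it was -0.53 at 24 h and -0.66 at 48 h, with TMM scaling -0.76 at 48 h and -0.13 in P14, and with free RNA subtracted -0.56 at 24 h. The portal count of P14 was 0 with the index of Cyp2f2 and Cyp2e1. With 2 mitosis genes the mitosis median of P14 turned from -0.02 to 0.0592, within its counting interval, and that at 96 h was -0.47, and it could not be computed for the middle zone there, which held under 20 positive cells. Of 288 recomputed single differences, 172 stayed within their counting interval, 108 left it, and 8 whose interval excluded 0 changed sign, all of them of values under 0.13 in size. Among the 108, Gls2 at 96 h, whose interval included 0, also changed sign, from -0.05 to 0.0796 with 10% to 20% mitochondrial UMIs. Fah at 48 h became 0.19 without free RNA and 0.0652 without acute phase genes. Hpd in P14 became 0.0575 without free RNA and 0.285 with TMM. At 96 h Uroc1 became -0.0223 with 10% to 20% and, with 0% to 30% mitochondrial UMIs, -0.12, and Hal then became -0.14. Hgd in P14 became -0.0915 with 0% to 30%. The cause was not tested. No paired analysis was possible because each group has 1 library. Leaving out a library was not possible for the same reason. Depth limits the central zone at 48 h, where Sds, Hal and Gls2 had 4.37, 8.74 and 9.83 CPM.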

Other observations

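A set of barcodes met the hepatocyte rule apart from having under 10% mitochondrial UMIs, and carried fewer than 3 leukocyte and fewer than 3 endothelial marker genes. They numbered 103 (P14), 137 (adult control), 326 (PHx 24 h), 169 (PHx 48 h) and 630 (PHx 96 h), with median depths of 6074 to 9675 UMIs. In all 5 libraries these barcodes had more Sds and less Tat relative to all UMIs than the hepatocytes. Sds had 653 CPM in them against 139 in hepatocytes of the adult control, 345 against 124 after 24 h, 347 against 89.7 after 48 h, 797 against 290.3 after 96 h and 299 against 185 in P14. At 1000 UMIs 41.4% (37.6% to 45.4%) of these barcodes had a Sds UMI after 96 h, against 15.8% of hepatocytes. Tat had 691 CPM in them against 2573 after 24 h, and 718 against 1095 in the adult control. The rise of Tat after 24 h was thus not seen in these barcodes. Hgd stood at 907 against 358 CPM and Fah at 733 against 211 CPM in the adult control, while after 48 h the values lay closer, at 249 against 221 and 236 against 194. In P14 Fah had 601 CPM in these barcodes, below the 733 of the adult control. What these barcodes are was not tested. With all barcodes of 0% to 30% mitochondrial UMIs counted as hepatocytes, whatever their leukocyte and endothelial markers, the Sds difference after 96 h was 1.41 instead of 1.06. This pool held 630 of the barcodes described here after 96 h and 137 in the adult control. Among those alone Sds had 797 CPM after 96 h over 653 in the adult control, a smaller ratio than 290.3 over 139 in hepatocytes. In barcodes above 30% it had 306 over 208 CPM. The part of the unequal numbers in the value of 1.41 was not tested.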
